A study of Mus musculus with 703 samples.

Results

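The Nduf genes were described in gastrocnemius muscle of mice from 20 CC-RIX strains. They are the nuclear genes named for the subunits and assembly factors of respiratory complex I. They were taken as every gene of the deposited count table whose symbol starts with Nduf, with symbols ending in -ps (pseudogenes) to be left out. This gave 45 of 19088 genes, and 0 such symbols had to be left out. All 45 passed the filter on low counts and were tested in every comparison. By role, 7 encode the nuclear core subunits, 29 encode accessory subunits and 7 encode assembly factors. The remaining members, Ndufa4 and Ndufa4l2, carry the name but lie outside complex I. Ndufb1 and Ndufaf8 were not analysed here.

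Complex I oxidises NADH at the start of the respiratory chain, hands the electrons to ubiquinone and pumps protons across the inner mitochondrial membrane. Its peripheral arm holds an N module, where NADH binds, and a Q module, where ubiquinone is reduced, while the membrane arm does the pumping. Core subunits carry out the reaction and are partly encoded by the mitochondrial genome, accessory subunits surround them, and assembly factors help to build the enzyme without staying in it. In muscle the complex supplies much of the proton gradient for ATP synthesis, and its content is known to differ between oxidative and glycolytic fibres. Metformin, a drug for type 2 diabetes, is known as an inhibitor of complex I.

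Each of the 703 libraries came from 1 mouse, an F1 animal of a cross between Collaborative Cross lines, which are inbred lines that carry mixtures of the same founder genomes. The labels give the genotype of all animals as Outbred. The crosses were CC001/UncJ x CC042/GeniUncJ, CC002/UncJ x CC043/GeniUncJ, CC002/UncJ x CC075/UncJ, CC004/TauUncJ x CC019/TauUncJ, CC009/UncJ x CC013/GeniUncJ, CC011/UncJ x CC005/TauUncJ, CC011/UncJ x CC027/GeniUncJ, CC012/GeniUncJ x CC002/UncJ, CC019/TauUncJ x CC042/GeniUncJ, CC019/TauUncJ x CC075/UncJ, CC024/GeniUncJ x CC002/UncJ, CC030/GeniUncJ x CC002/UncJ, CC042/GeniUncJ x CC040/TauUncJ, CC042/GeniUncJ x CC060/UncJ, CC043/GeniUncJ x CC011/UncJ, CC043/GeniUncJ x CC042/GeniUncJ, CC051/TauUncJ x CC019/TauUncJ, CC051/TauUncJ x CC059/TauUncJ, CC051/TauUncJ x CC060/UncJ and CC075/UncJ x CC042/GeniUncJ. Animals of both sexes ate a diet labelled 10% fat + fiber or 44% fat + fiber from 6 weeks of age, and the drinking water of treated animals held 5 mg/mL metformin once they had reached month 7. The untreated animals comprised 236 females and 233 males, of which 234 had 10% fat and 235 had 44% fat. The 234 treated animals fell into 4 groups of sex and diet, with 57 females on 10% fat and 59 animals in each other group. Tissue came from cohorts of 6 and 12 months, and the labels give no animal's age. Treated animals belong to the older cohort and untreated animals to either, so metformin and age cannot be told apart. Age, which the paper used as a covariate, could not enter the fits for strain, diet and sex either.

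Total counts ran from 27.4M to 96.1M per library with a median of 47.9M, and group medians lay between 46.3M and 49.6M. The 7 muscle fibre markers summed to 60795 to 130159 CPM (counts per 1M counts of the library, after scaling) over all libraries. The expression of 15 libraries did not match the labelled sex, and that of 4 was nearest to a strain other than the labelled one. In 100 libraries the summed level of 7 hepatocyte genes was over 10 times the median, with a highest value of 6403 CPM against a median of 2.49 CPM. In 4 libraries the mean log2 level of the Nduf genes stood far from that of their own strain and sex. A treated male of CC051/TauUncJ x CC019/TauUncJ and a treated female of CC051/TauUncJ x CC059/TauUncJ were low, by -0.57 and -0.53, and an untreated male of CC002/UncJ x CC075/UncJ and an untreated male of CC001/UncJ x CC042/GeniUncJ were high, by 0.85 and 0.98. All 4 ate 44% fat, and the high male of CC002/UncJ x CC075/UncJ was also among those nearest to another strain. All libraries were kept, and values without these 4 are given beside many of the main counts, medians and shares.

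Levels of the members were compared per length, as median CPM per kilobase of exon in the 469 untreated animals. The length was that of all annotated exons of a gene, merged over its transcripts. It can exceed the length of the main transcript, so a low value can also come from long annotated exons. The core subunits had a median of 71.4 over the 7 genes, with 37.2 for Ndufs1. Accessory subunits had a median of 51.4 and ran from 7.87 for Ndufb2 to 145 for Ndufb9. Assembly factors were the lowest group, from 1.09 for Ndufaf2 to 13.8 for Ndufaf1. Ndufa4, a subunit now placed with complex IV, had 123 and Ndufa4l2, its relative known from hypoxia, had 2.06. In bulk muscle a lower level can come from fewer cells of a type or from less RNA per cell, and these cannot be told apart.

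Ndufab1, the mitochondrial acyl carrier protein, which was counted here with the Q module, differed most between strains. Its level was tied to that of a copy elsewhere in the genome. The gene lies on chromosome 7 (chr7:122085403-122101886, minus strand, GRCm38). The processed pseudogene Gm4459 lies on the same chromosome (chr7:139659688-139660155, minus strand). All 468 coding bases of Ndufab1 aligned to Gm4459 without a gap, with 99.8% identity and the single substitution G137A, where the base of Ndufab1 is given before its position, counted from the first base of the start codon, and that of Gm4459 after it. Bases 97 to 177 of both are shown because they hold this difference, which is in capitals.
Ndufab1: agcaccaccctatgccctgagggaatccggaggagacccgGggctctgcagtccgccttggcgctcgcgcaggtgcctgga
Gm4459: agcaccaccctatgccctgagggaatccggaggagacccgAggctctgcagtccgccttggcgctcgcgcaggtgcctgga
A read from the coding sequence that misses position 137 therefore has the same letters at both loci of the reference, and reads of 100 bp were divided between genes by the authors' estimation. Another copy, Ndufab1-ps, with 99.4% identity over 469 bases, is not a row of the table.

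The counts assigned to Gm4459 split the strains into groups. In the untreated animals of CC002/UncJ x CC043/GeniUncJ, Gm4459 was listed at 0 in all 24 libraries and Ndufab1 had a mean of 97.5 ± 11.6 CPM (SD, n = 24). In CC043/GeniUncJ x CC042/GeniUncJ, the highest value of Gm4459 was 0.0694 CPM and Ndufab1 had 87.3 ± 9.19 CPM (SD, n = 25). In CC001/UncJ x CC042/GeniUncJ, Gm4459 had a median of 0 CPM and was under 1 CPM in 23 of 24 libraries, with Ndufab1 at 86.4 ± 20.8 CPM (SD, n = 24). The exception was an untreated male on 44% fat with 46.7 CPM of Gm4459 and 48.4 CPM of Ndufab1, whose profile was not nearest to another strain. CC002/UncJ x CC075/UncJ lay between, with 29.7 ± 9.83 CPM of Gm4459 and 68.9 ± 7.36 CPM of Ndufab1 (SD, n = 24). Its median of Gm4459 was 27.6 CPM and its highest library had 65.4 CPM. This strain holds the library apart that was nearest to another strain, which was kept in these values. In the other 16 strains the means of Gm4459 ran from 35.97 to 46.7 CPM and those of Ndufab1 from 47.7 to 59.4 CPM. Gm4459 was thus near 0 where Ndufab1 was highest. CC002/UncJ, CC042/GeniUncJ and CC043/GeniUncJ were also parents of strains in which Gm4459 had a mean of 29.7 CPM or more.

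The sum of both genes varied far less than Ndufab1 alone. Strain means of the sum ran from 85.9 to 101.99 CPM, a ratio of 1.19, against 2.04 for Ndufab1. Strain took 71.2% of the variance of log2 CPM of Ndufab1, 95.4% of that of Gm4459 and 10.4% of that of the sum. The sum still differed between strains (F = 4.11, edgeR adjusted p = 3.6e-08), with F = 86.05 for Ndufab1 alone. The same strains stood apart in metformin-treated animals, which the comparison above did not use. There Gm4459 was at 0 in all 12 libraries of CC001/UncJ x CC042/GeniUncJ and of CC043/GeniUncJ x CC042/GeniUncJ and at most 0.0935 CPM in CC002/UncJ x CC043/GeniUncJ. Ndufab1 had treated means of 82.98, 85.2 and 92.4 CPM in these strains and 44.2 to 68.6 CPM in the other 17.

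**Figure D1:**
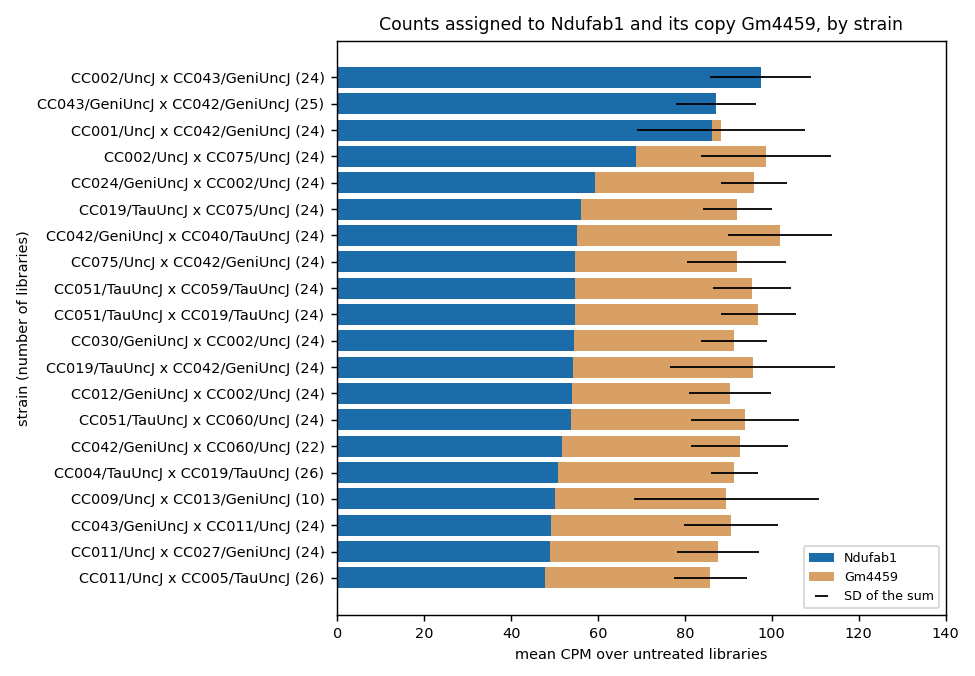
Mean CPM of Ndufab1 (blue) and its copy Gm4459 (tan) stacked for each of the 20 strains in untreated animals, with the number of libraries in brackets and the SD of the sum as a line. Strains are ordered by Ndufab1: the 3 strains at the top have almost no Gm4459, while the summed bars of all strains end between 85.9 and 101.99 CPM.

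Near-identical copies were also found for other members. Of the 45 genes, 9 have a copy with at least 95% identity over at least 200 bases, and for 3 of them the copy is a row of the table. Ndufb4, a membrane-arm subunit on chromosome 16, is identical over 390 bases to Gm3244 on chromosome 15, and the mean of the copy, 65.9 CPM, was above that of Ndufb4, 20.7 CPM. Its level is therefore uncertain. Ndufa12 has the copy Gm15920, with a mean of 0.0641 CPM beside 95.4 CPM of the gene. The other members with such a copy were Ndufs3, Ndufs5, Ndufs6, Ndufb3, Ndufb9 and Ndufb11. Their copies have no counts of their own, so an effect on these members was not tested. That of Ndufb9, Gm49356, is annotated as protein coding and matched over 202 bases, and the others are processed pseudogenes.

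The comparison of strains asked how far the level of each gene followed genetic background in untreated animals. Of the 45 members, 43 (95.6%) differed between strains in the edgeR test, and 95.4% of all 16384 genes tested did so. The share for the members was near that background. Ndufb2 (adjusted p = 0.270) and Ndufa4 (adjusted p = 0.079) were not called. Within the lower range of sequencing identifiers, which served as the batch term, 44 members were called among 400 animals. In the upper range 10 were called among 69 animals. The share of all genes called within each range is not given.

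Shares of variance were set side by side by role, without a test between roles. Strain took a median of 9.31% of the variance of a member and 15.4% of that of all genes, and 11 of the 45 members were above the latter. Assembly factors had a median of 23.9%, with 34.1% for Ndufaf2, 29.8% for Ndufaf6, 28.1% for Ndufaf5, 23.9% for Ndufaf1 and 23.1% for Ndufaf4. Core subunits had a median of 6.67%, with 19.1% for Ndufs1. Among accessory subunits Ndufb5 had 30.9% and Ndufs4 30.8%, after Ndufab1. Without the libraries apart the share was higher for every member. These libraries were picked by their mean over these same genes, and leaving them out removes spread within strains. The rise is therefore not a separate result about the members. It was then 72.8% for Ndufab1, 35.6% for Ndufb5, 34.5% for Ndufs4, 21.9% for Ndufs1 and 9.78% for Ndufs8, which had 6.67% before. Members such as Ndufb8 (18.6%), Ndufa6 (18.5%) and Ndufs6 (17.5%) then also exceeded 15.4%, the median of all genes with these libraries kept. In treated animals, which were not used for these values, the shares were 74.6% for Ndufab1, 7.48% for Ndufs1, 24.5% for Ndufaf2, 28.8% for Ndufaf6, 27.3% for Ndufb5 and 31.4% for Ndufs4.

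**Figure D2:**
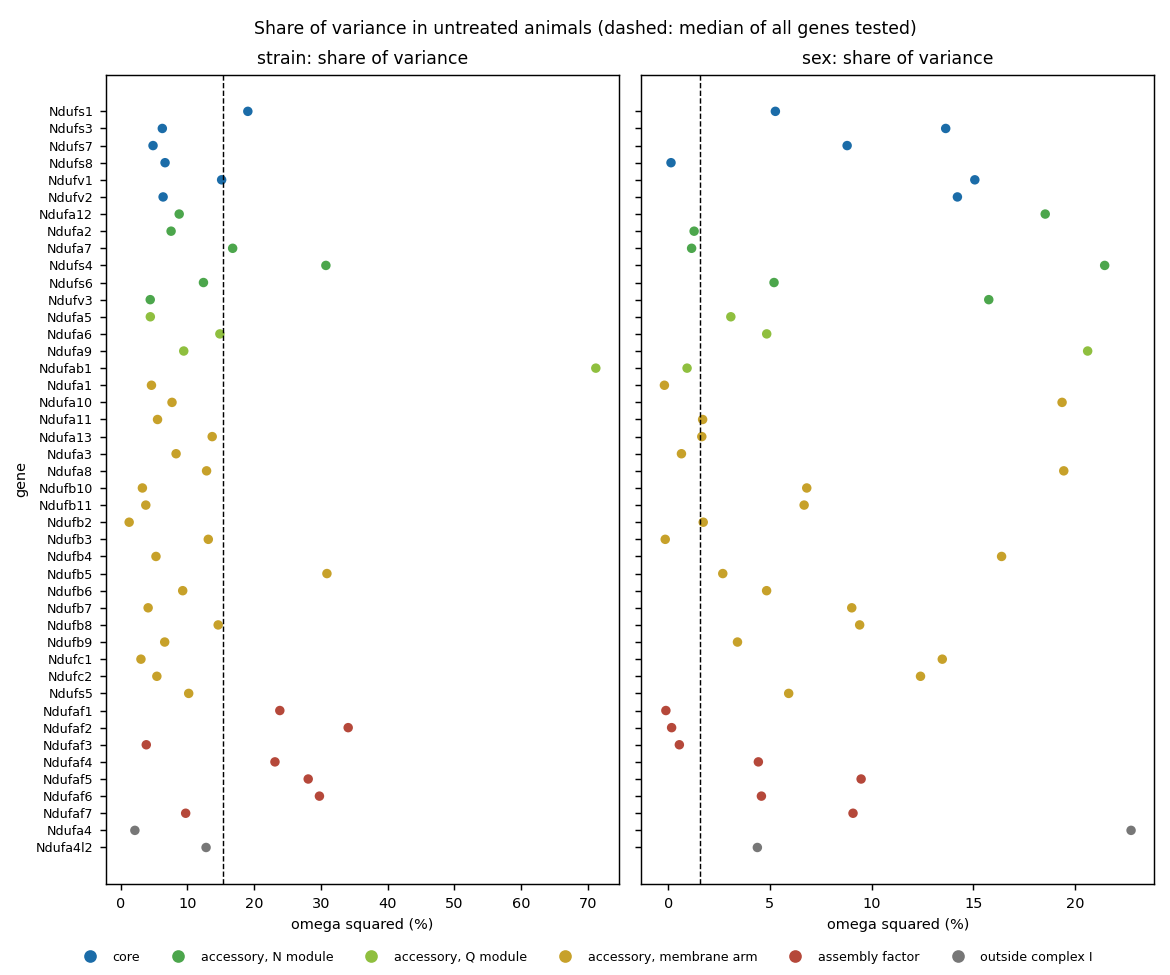
Share of the variance of log2 CPM (omega squared, in %) that followed strain (left) and sex (right) for 44 of the 45 Nduf genes in 469 untreated animals, coloured by role, with the median of all genes tested as a dashed line (15.4% for strain and 1.58% for sex). Ndufab1 lies apart at 71.2% for strain, and most assembly factors lie right of the dashed line, while most core and accessory genes lie left of it.

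Ndufs4, an N-module subunit whose loss in mice gives a known model of Leigh syndrome, ran from 48.05 to 78.8 CPM with a median of 63.3 in CC009/UncJ x CC013/GeniUncJ, the strain with the lowest mean (62.02 ± 8.56 CPM, SD, n = 10). In CC042/GeniUncJ x CC040/TauUncJ it ran from 73.5 to 129.7 CPM with a median of 94.96 (mean 95.8 ± 16.2 CPM, SD, n = 24). The ranges of these strains overlapped only between 73.5 and 78.8 CPM, and the ratio of their means was 1.54. Strain means in CPM are not adjusted for sex, diet or age, and sex took 21.5% of the variance of Ndufs4. Ndufaf2, an assembly factor of the N module, ran from 1.78 to 3.95 CPM in CC012/GeniUncJ x CC002/UncJ and from 3.13 to 6.00 CPM in CC042/GeniUncJ x CC040/TauUncJ, with means of 2.56 ± 0.576 and 4.21 ± 0.764 CPM (SD, n = 24 each). These ranges overlapped as well. Ndufaf6, which acts early in assembly, had means of 8.03 ± 1.22 CPM in CC011/UncJ x CC027/GeniUncJ and 11.5 ± 2.16 CPM in CC002/UncJ x CC075/UncJ (SD, n = 24 each). The latter strain holds the library apart that was nearest to another strain, and its mean was close to the 11.35 CPM of CC012/GeniUncJ x CC002/UncJ. Ndufb5, a membrane-arm subunit, had means of 121.9 ± 21.1 CPM in CC009/UncJ x CC013/GeniUncJ (SD, n = 10) and 155 ± 14.4 CPM in CC042/GeniUncJ x CC040/TauUncJ (SD, n = 24).

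CC042/GeniUncJ x CC040/TauUncJ had the highest mean of all strains for 20 of the 45 members, and CC030/GeniUncJ x CC002/UncJ had the lowest mean for 12. Over the 45 genes, the median level of a strain lay between -0.079 in CC030/GeniUncJ x CC002/UncJ and 0.11 in CC042/GeniUncJ x CC040/TauUncJ, as a log2 difference from the mean of all strains. In the latter strain 40 members were above that mean. The same median over all genes tested was 0.00918 and 0.000307 in these strains. The ratio of the highest to the lowest strain mean had a median of 1.22 over the members and exceeded 1.5 for 3, Ndufab1, Ndufaf2 and Ndufs4.

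On 44% fat, 20 of the 45 members (44.4%) were higher than on 10% fat in untreated animals and 1 (2.22%) was lower. Of all genes tested, 10.1% were higher and 10.1% were lower. The differences were small: the median over the members was 0.039 on the log2 scale, or 2.71%, and that of all genes was -0.00299. The counts differed between roles. Of the core subunits 6 of 7 rose, of the accessory subunits 12 of 29 rose, and of the assembly factors 1 rose and 1 fell. Among accessory subunits, 10 of 19 in the membrane arm, 2 of 4 in the Q module and 0 of 6 in the N module rose.

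Ndufv1, the core subunit that binds NADH and the flavin, ran from 148 to 271.7 CPM on 10% fat, with a median of 201 (mean 202.5 ± 21.9 CPM, SD, n = 234). On 44% fat it ran from 149.8 to 362 CPM, with a median of 212.8 (mean 215 ± 26.7 CPM, SD, n = 235). The groups overlapped over most of their range, and the shift of 0.088 ± 0.012 (log2, SE) had an edgeR adjusted p of 3.36e-10. It was positive in 19 of 20 strains. Ndufs8, which carries iron-sulfur clusters of the Q module, went from 49.6 ± 5.60 to 52.3 ± 8.11 CPM (SD, n = 234 and 235), a difference of 0.077 ± 0.016 (SE, edgeR adjusted p = 6.89e-05). Ndufa13, a membrane-arm subunit also known as GRIM-19, went from 115.7 ± 17.5 to 122.8 ± 24.3 CPM, a difference of 0.083 ± 0.020 (SE, edgeR adjusted p = 4e-04). Ndufa10, also of the membrane arm, rose by 0.075 ± 0.012 (SE, edgeR adjusted p = 1.87e-08) and was higher in 18 of 20 strains. Each of these differences was smaller than the SD between animals of a group.

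Other core subunits that rose were Ndufs1 (0.048), Ndufs3 (0.047) and Ndufv2 (0.053), while Ndufs7 had 0.046 ± 0.019 (SE, edgeR adjusted p = 0.0771). Outside the complex, Ndufa4l2 rose from 2.24 ± 0.528 to 2.37 ± 0.586 CPM (SD, n = 234 and 235; 0.085 ± 0.029, SE, edgeR adjusted p = 0.0207), and Ndufa4 had 0.033 (edgeR adjusted p = 0.163). Ndufaf1, an assembly factor of the membrane arm, rose by 0.035 (edgeR adjusted p = 0.0302). Ndufaf7, a methyltransferase that acts in assembly, went from 10.2 ± 1.18 to 9.89 ± 1.30 CPM, a difference of -0.041 ± 0.015 (SE, edgeR adjusted p = 0.0335). It was higher on 44% fat in 7 of 20 strains.

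**Figure D3:**
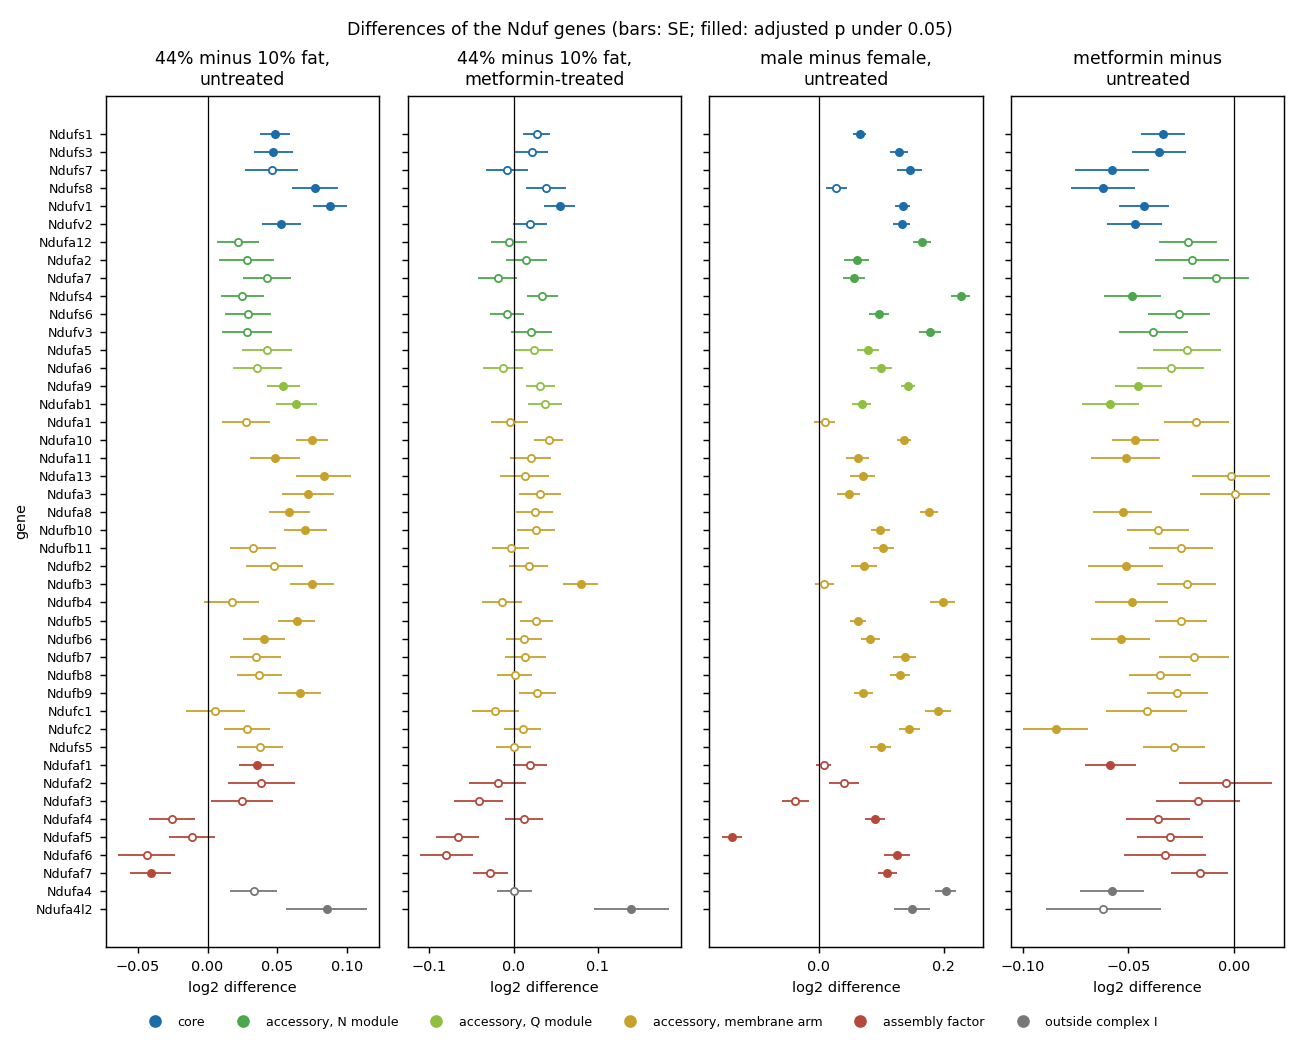
Log2 difference of 44 of the 45 Nduf genes for diet in untreated animals, diet in metformin-treated animals, sex and metformin (from left to right), with the SE as a bar and filled points where the adjusted p was under 0.05. The horizontal scales differ between panels. Points for diet in untreated animals lie mostly right of 0, with assembly factors (red) around 0. Those for sex lie mostly right of 0 with Ndufaf5 at -0.14, and those for metformin lie mostly left of 0.

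Within the lower identifier range 18 members were higher on 44% fat and 0 were lower (median 0.043), and within the upper range 0 were called among 69 animals (median 0.035). Without the 4 libraries apart, 16 were higher and 2 lower (median 0.027): Ndufa11, Ndufaf1 and Ndufb6 were among the members no longer called, and Ndufaf6 was called as lower. Without TMM scaling 13 were higher and 1 lower (median 0.026). The share of all genes called in these alternative fits is not given. For Ndufv1 the difference was 0.085 in the lower range, 0.11 in the upper range (adjusted p = 0.243) and 0.082 without the 4 libraries. Markers of fibre type moved with diet too. Of 8 slow fibre genes 4 were higher and 0 lower on 44% fat (median 0.068), and Myh2, the myosin of fast oxidative fibres, was 0.14 higher. Of 2 fast glycolytic fibre genes 1 was lower and 0 were higher (median -0.038). Of 7 muscle fibre markers 2 were lower, 3 of 4 endothelial markers were higher, and 5 of 7 adipocyte markers were higher and 2 lower. Summed adipocyte markers ran from 74.8 to 917 CPM on 10% fat and from 73.03 to 1198 CPM on 44% fat in untreated animals. The part of these cell types in the difference of the Nduf genes was not tested.

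In metformin-treated animals, which did not enter the comparison above, 3 of the 45 members were higher on 44% fat (6.67%) and 0 were lower, where 5.27% of all genes were higher and 6.79% were lower. The share of members was near the background. The 3 were Ndufv1, Ndufb3 and Ndufa4l2, all of which were also higher in untreated animals. Ndufb3, a membrane-arm subunit named here after its values were seen, ran from 36.1 to 79.2 CPM on 10% fat with a median of 48.4 (mean 48.6 ± 5.77 CPM, SD). On 44% fat it ran from 34.9 to 67.9 CPM with a median of 50.98 (mean 51.4 ± 6.23 CPM, SD), a difference of 0.079 ± 0.021 (SE, edgeR adjusted p = 0.00324) between groups that overlapped widely. The differences of Ndufv1 and Ndufa4l2 were 0.055 ± 0.018 (SE, edgeR adjusted p = 0.0327) and 0.14 ± 0.044 (SE, edgeR adjusted p = 0.0203). The median over the members was 0.015. It was 0.034 with 1 member called in the lower range and -0.028 with 0 called in the upper range. Without the 4 libraries apart, of which 2 were treated, it was 0.025 with 4 members called, Ndufa10 being the added one.

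Males and females were compared in untreated animals. Of the 45 genes, 38 (84.4%) were higher in males and 1 (2.22%) was lower, where 30.1% of all genes were higher and 37% were lower. The median difference was 0.099 on the log2 scale (7.12%), against -0.018 over all genes. Sex took a median of 5.26% of the variance of a member and 1.58% of that of all genes, and for 17 members it took more than strain did. Without TMM scaling 20 members were higher and 5 lower, and the median of all genes was then -0.082. How many of all genes were called in that fit is not given.

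Ndufs4 ran from 48.05 to 105.8 CPM in untreated females with a median of 72.8 (mean 74.1 ± 9.29 CPM, SD, n = 236). In males it ran from 55.9 to 172 CPM with a median of 85.3 (mean 86.7 ± 15.5 CPM, SD, n = 233). The male median lay above that of females, the ranges overlapped, and the difference was 0.23 ± 0.015 (SE, edgeR adjusted p = 7.08e-39). Sex took 21.5% of its variance. Ndufa4 was 0.20 higher in males, Ndufb4 0.20 and Ndufc1, a membrane-arm subunit, 0.19. The core subunits Ndufv1, Ndufv2, Ndufs3 and Ndufs7 were 0.13 to 0.15 higher, Ndufs1 was 0.066 higher, and Ndufs8 had 0.028 ± 0.016 (SE, edgeR adjusted p = 0.118).

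Ndufaf5, an assembly factor that hydroxylates Ndufs7, was the member that was lower in males. It ran from 12.8 to 28.8 CPM in females with a median of 19.8 (mean 19.8 ± 2.61 CPM, SD, n = 236). In males it ran from 10.3 to 28.2 CPM with a median of 17.9 (mean 17.99 ± 2.95 CPM, SD, n = 233). The ranges overlapped nearly in full, and the difference was -0.14 ± 0.017 (SE, edgeR adjusted p = 3.93e-15).

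**Figure D4:**
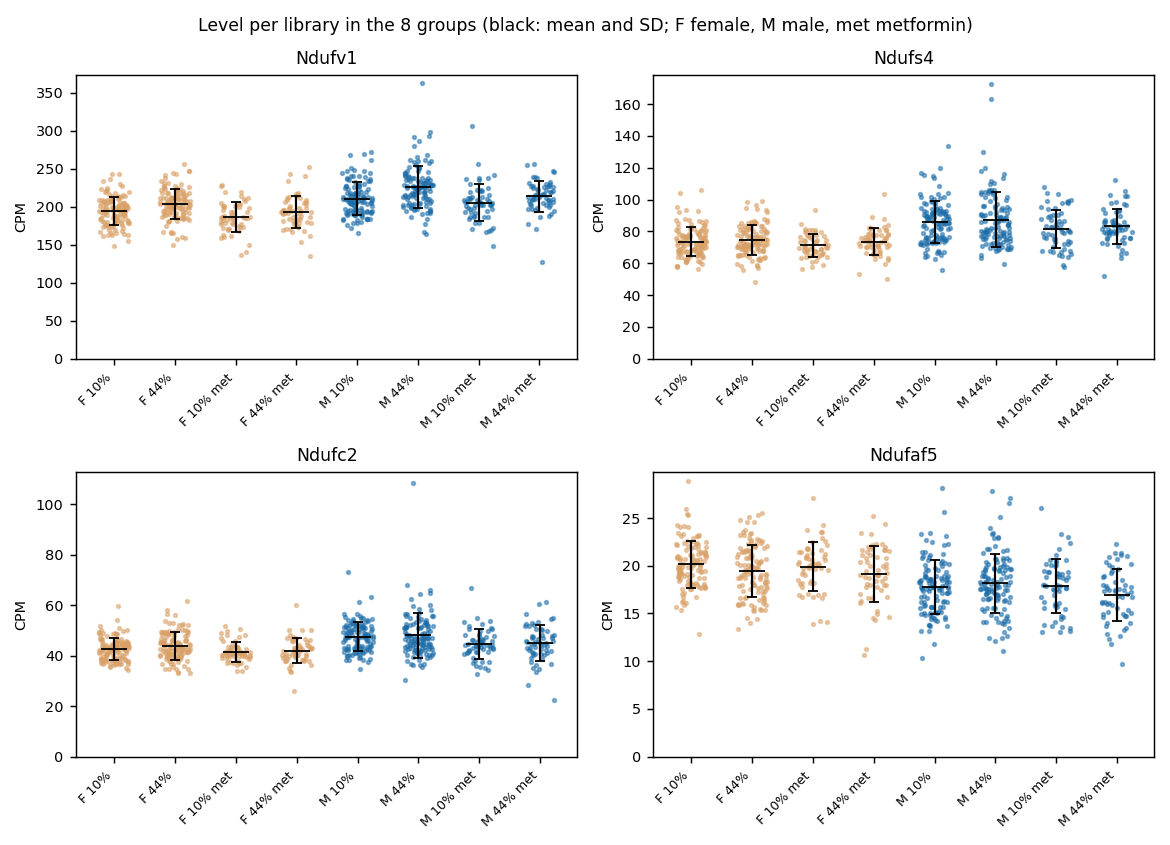
CPM of Ndufv1, Ndufs4, Ndufc2 and Ndufaf5 in each library of the 8 groups of sex (females tan, males blue), diet (10% or 44% fat) and treatment (met, metformin), with the mean and SD in black. Male means lie above female means for Ndufs4 and below them for Ndufaf5, and the groups that differ in diet or treatment overlap over most of their range.

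In the lower identifier range 38 members were higher in males and 1 lower, and in the upper range 14 were higher and 0 lower. With the libraries apart left out 37 were higher and 2 lower (median 0.084): Ndufa3 was no longer called, and Ndufaf3 was called as lower. Slow fibre markers went the other way: 8 of 8 were lower in males, with a median of -0.63, and Myh2 had -0.25 and was also called. Their summed level ran from 1188 to 4261 CPM in untreated females and from 491 to 2558 CPM in untreated males. Of the muscle fibre markers 5 of 7 were higher and 1 lower in males. Both fast glycolytic fibre genes were higher in males. Of 7 adipocyte markers 6 were lower and 1 higher in males (median -0.44), of 4 endothelial markers 3 were higher and 1 lower, and 1 of 4 Schwann cell markers was lower. The part of fibre type and of these cell types in the sex difference of the Nduf genes was not tested.

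In metformin-treated animals 19 of the 45 members (42.2%) were lower than in untreated animals and 0 were higher, where 11% of all genes were lower and 8.34% were higher. The sign was negative for 44 of 45 members, with a median of -0.036 (-2.43%) against -0.00217 over all genes. All 7 core subunits fell, although the call for Ndufs3 was lost in several alternative fits given below. Of the accessory subunits 10 of 29 fell, of the assembly factors 1 of 7 fell and, outside the complex, Ndufa4 fell. These differences cannot be told apart from those of age.

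Ndufc2, a membrane-arm subunit, ran from 30.3 to 108.5 CPM in untreated animals with a median of 44.6 (mean 45.5 ± 6.77 CPM, SD, n = 469). With metformin it ran from 22.6 to 67.02 CPM with a median of 42.9 (mean 43.3 ± 5.76 CPM, SD, n = 234). The groups overlapped widely, and the difference was -0.084 ± 0.015 (SE, edgeR adjusted p = 4.6e-06), with 17 of 20 strains below 0. Ndufs8 went from 50.9 ± 7.09 to 47.8 ± 6.14 CPM (SD, n = 469 and 234; -0.062 ± 0.015, SE, edgeR adjusted p = 0.00105) and was lower in 19 of 20 strains. Ndufaf1 went from 20.8 ± 2.28 to 20.05 ± 2.35 CPM (-0.059 ± 0.012, SE, edgeR adjusted p = 7.09e-05). Ndufab1 had -0.059, Ndufs7 -0.058 and Ndufa4 -0.058. Among other core subunits, Ndufv2 had -0.047, Ndufv1 -0.042, Ndufs3 -0.036 and Ndufs1 -0.034. Ndufa4l2 had -0.062 ± 0.027 (SE, edgeR adjusted p = 0.092).

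The call for Ndufb4 (-0.048, edgeR adjusted p = 0.0325) was lost when the counts of its copy were added (-0.025, adjusted p = 0.244), whereas that for Ndufab1 with Gm4459 added was -0.058 (adjusted p = 5.78e-04). In the lower identifier range, with 400 untreated and 144 treated animals, 21 members were lower (median -0.039). In the upper range, with 69 and 90 animals, 0 were called (median -0.019), and Ndufs1 had 0.0077 there. Without the 4 libraries apart 15 members were lower (median -0.023), and Ndufa11, Ndufb2, Ndufb4 and Ndufs3 were no longer called. With limma voom 16 members were still called, and Ndufb2, Ndufb4 and Ndufs3 were not. The same held on the authors' variance-stabilised table and without libraries that did not match their label. Without libraries high in hepatocyte genes 17 were called, and Ndufb4 and Ndufs3 were not. Without TMM scaling 33 were lower, but the share of all genes called in that fit is not given, so this is not a result about the members. Of the marker lists, 3 of 7 adipocyte genes, 2 of 4 Schwann cell genes and 2 of 4 endothelial genes were lower with metformin. Higher were 1 of 4 endothelial genes, 1 of 8 slow fibre genes, 1 of 2 fast glycolytic fibre genes and 1 of 7 muscle fibre genes. Their part was not tested.

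Whether the diet difference depended on strain or sex was tested by interaction terms. With edgeR, 0 members were called for diet by strain, where 4.13% of all genes were called, and 0 with limma voom. An unadjusted edgeR p under 0.05 was found for 1 of 45 members and for 2637 of 16384 genes. For diet by sex, 0 members were called by either tool, and 0.568% of all genes were called. Unadjusted p was under 0.05 for 8 of 45 members and for 1530 of 16384 genes. For metformin by diet, 0 members were called by either tool, and 0.0902% of all genes were called. Unadjusted p was under 0.05 for 0 of 45 members and for 1609 of 17740 genes. For metformin by sex, 0 members were called by either tool, and 3.12% of all genes were called. Unadjusted p was under 0.05 for 3 of 45 members and for 3550 of 17740 genes.

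For metformin by strain, 1 member (2.22%), Ndufs1, was called by edgeR (F = 2.26, adjusted p = 0.0209), where 11.6% of all genes were called. limma voom called 0 members, and so did edgeR within the lower and the upper identifier range. Without the 4 libraries apart edgeR called 2 members, with F = 2.46 for Ndufs1 (adjusted p = 0.0089). The other was Ndufv1. Ndufs1, the iron-sulfur subunit of the N module, was lower with metformin in 13 strains and higher in 7. In CC043/GeniUncJ x CC011/UncJ it ran from 273 to 395 CPM in untreated animals, with a median of 308 (n = 24). With metformin it ran from 227 to 315 CPM there, with a median of 281 (n = 12), a log2 difference of -0.16. In CC019/TauUncJ x CC042/GeniUncJ it ran from 228 to 356 CPM in untreated animals, with a median of 283 (n = 24). With metformin it ran from 260.3 to 386 CPM there, with a median of 312 (n = 12), a log2 difference of 0.10. Treated and untreated animals overlapped in both strains.

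As a description over all members, the median diet difference was above 0 in 16 of 20 strains and ran from -0.035 in CC030/GeniUncJ x CC002/UncJ to 0.16 in CC002/UncJ x CC075/UncJ. The latter fell to 0.089 without the 4 libraries apart, and that of CC001/UncJ x CC042/GeniUncJ went from 0.065 to -0.026. The median metformin difference was below 0 in 14 strains and ran from -0.18 in CC042/GeniUncJ x CC040/TauUncJ, where 45 of 45 members were below 0, to 0.058 in CC004/TauUncJ x CC019/TauUncJ. CC042/GeniUncJ x CC060/UncJ had -0.13, also with 45 of 45 below 0. The median metformin difference was below 0 in 13 strains once the 4 libraries apart were left out. CC002/UncJ x CC075/UncJ then went from -0.012 to 0.019, CC001/UncJ x CC042/GeniUncJ from -0.044 to -0.0017, CC051/TauUncJ x CC059/TauUncJ from -0.055 to -0.0069 and CC051/TauUncJ x CC019/TauUncJ from -0.093 to -0.053. The untreated animals of a strain enter its level and both differences, so these values are not independent of each other.

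**Figure D5:**
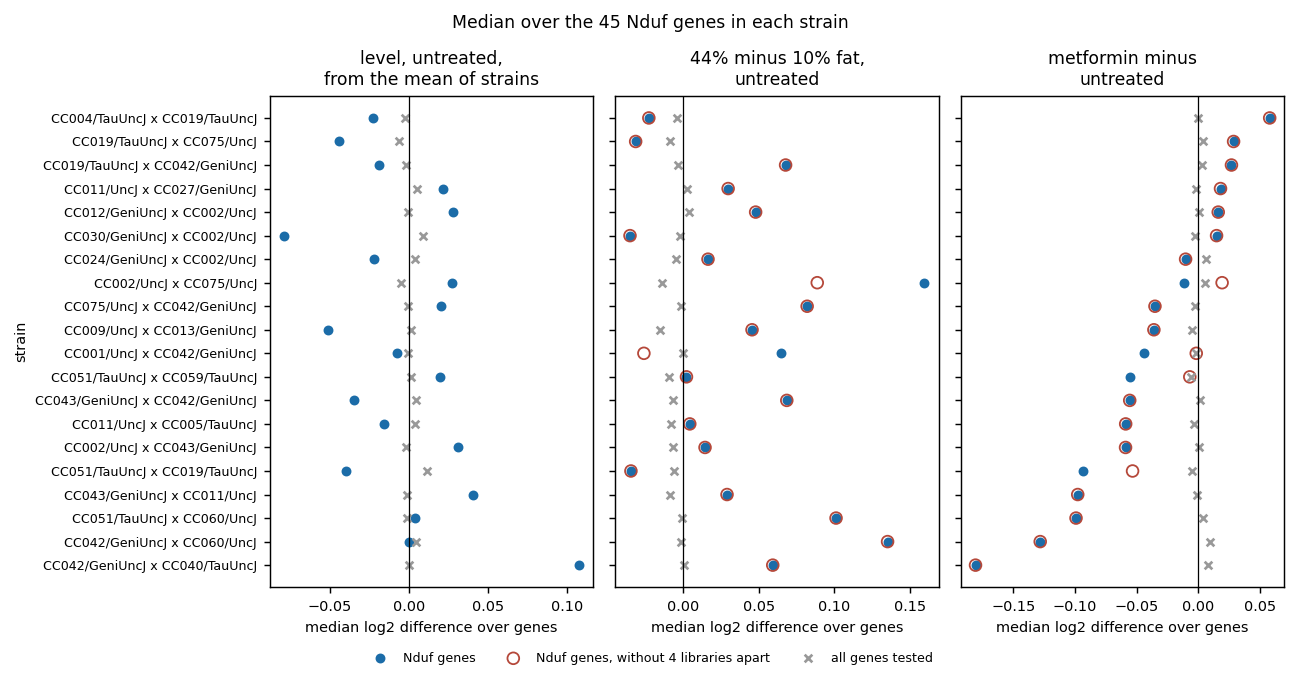
Median over the 45 Nduf genes in each of the 20 strains, as a log2 value, of the untreated level relative to the mean of strains, the diet difference in untreated animals and the metformin difference (from left to right). Blue points are all libraries, open red circles leave out the 4 libraries that stand apart and grey crosses are the medians of all genes tested. CC042/GeniUncJ x CC040/TauUncJ has the highest level, 0.11, and the lowest metformin difference, -0.18.

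The rest of the respiratory chain was set beside the Nduf genes. All 7 complex I subunits encoded by the mitochondrial genome were higher on 44% fat in untreated animals (median 0.11), and 5 of 7 were higher on 44% fat in treated animals. With mt-Nd5 as an example, the diet differences were 0.11 ± 0.020 (SE, edgeR adjusted p = 7.04e-07) and 0.12 ± 0.032 (SE, edgeR adjusted p = 0.00332). All 7 were higher in males, and 1 of 7, mt-Nd3, was lower with metformin (-0.085). The metformin difference depended on sex for 4 of 7 (57.1%) in the interaction test of edgeR, where 3.12% of all genes were called. On 44% fat 4 of 4 genes of complex II were higher, 5 of 9 of complex III, 6 of 10 of complex IV and 11 of 15 of complex V, with medians from 0.049 to 0.063. With metformin 3 of 4 of complex II, 6 of 9 of complex III, 2 of 10 of complex IV and 10 of 15 of complex V were lower. No gene of these 4 complexes was called in the other direction for either. The median strain share was 24.9% for complex II, 7.64% for complex III, 8.76% for complex IV and 10.7% for complex V.

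Other assembly factors of complex I, of which 11 of 14 were in the table, were set beside the Nduf assembly factors. For diet 1 was higher, Foxred1 (0.051), and 1 was lower, Tmem126b (-0.048), and for metformin 1 was lower, Tmem70 (-0.059). Their median strain share was 42.2%. Among 12 regulators of mitochondrial genes 6 were higher on 44% fat. They included Esrra (0.079) and Esrrb (0.20), nuclear receptors that bind the ERR motif, Perm1 (0.080), a muscle regulator of the same programme, and Tfam (0.067), which acts on mitochondrial DNA. Ppargc1a, the coactivator PGC-1α, had -0.069 ± 0.045 (SE, edgeR adjusted p = 0.301) for diet, was 0.24 higher in males and was lower with metformin (-0.14, edgeR adjusted p = 0.0113). The regulators went both ways for sex and metformin. In males 7 of the 12 were higher and 4 lower (-0.12 to 0.24), and with metformin 1 was higher and 3 were lower (-0.14 to 0.077).

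The members moved together between animals to different degrees. On residuals after strain, sex, diet and identifier range, over 469 untreated animals, the median Pearson r between pairs was 0.733 for core subunits, 0.748 for accessory subunits and 0.272 for assembly factors. Ndufa4 had a median r of 0.720 with the core subunits and Ndufa4l2 one of 0.110. Spearman's rho gave medians of 0.695, 0.663 and 0.240 for the first 3 groups, and without the libraries apart Pearson's r gave 0.724, 0.697 and 0.250. All pairs come from the same libraries and share their depth and composition, and genes with few counts such as the assembly factors have more counting noise.

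Promoters were searched for motifs because many members moved together. Of the 45 genes, 39 had a RefSeq promoter of GRCm38.p6, and the 250 bases before the start were searched on both strands. The ERR motif AAGGTCA was in 7.69% of members and 3.01% of the 12234 genes of the table with a promoter. The NRF1 core CGCANGCG was in 25.6% and 12.6%, the YY1 motif AANATGGC in 12.8% and 4.23%, the GABP motif CCGGAAG in 10.3% and 12.1%, and the SP motif GGGCGG in 46.2% and 55.1%. Of the 39 members, 16 were higher on 44% fat in untreated animals, and they included 0 of 3 with the ERR motif, 3 of 10 with NRF1, 3 of 5 with YY1, 3 of 4 with GABP and 9 of 18 with SP. A match is a run of letters and not a binding site. Shown are the promoter of Ndufv1 (chr19:4012756-4013005), which had the largest diet difference and no match, that of Ndufb10 (chr17:24724424-24724673), a membrane-arm gene that rose, with YY1 and NRF1 matches, and that of Ndufs5 (chr4:123718187-123718436), a gene not called for diet, with ERR and NRF1 matches. All 3 are on the minus strand, are written 5′ to 3′ in the direction of the gene and have the matches in capitals, and no matches overlap.
Ndufv1: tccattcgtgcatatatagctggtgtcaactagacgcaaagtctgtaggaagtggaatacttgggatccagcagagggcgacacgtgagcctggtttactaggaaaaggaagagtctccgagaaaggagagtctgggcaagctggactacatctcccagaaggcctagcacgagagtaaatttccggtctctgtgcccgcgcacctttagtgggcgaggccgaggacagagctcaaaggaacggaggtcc
Ndufb10: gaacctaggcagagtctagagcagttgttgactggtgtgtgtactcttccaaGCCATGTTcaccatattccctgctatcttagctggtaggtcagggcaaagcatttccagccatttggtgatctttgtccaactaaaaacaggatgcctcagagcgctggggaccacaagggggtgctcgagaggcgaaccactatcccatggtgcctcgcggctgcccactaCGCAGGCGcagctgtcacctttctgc
Ndufs5: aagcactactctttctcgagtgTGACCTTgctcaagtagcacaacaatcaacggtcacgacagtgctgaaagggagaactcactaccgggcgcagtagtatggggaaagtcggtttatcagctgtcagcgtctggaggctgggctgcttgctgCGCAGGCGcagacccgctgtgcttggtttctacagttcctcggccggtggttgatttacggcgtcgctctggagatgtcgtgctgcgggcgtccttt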

How the data were processed

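RNA of gastrocnemius muscle from 703 mice was sequenced by the authors as polyadenylated libraries, in pairs of 100 bp. The deposited values are expected counts per gene: the authors aligned both ends of each pair as separate reads to transcripts of the founder strains and shared ambiguous reads among genes by expectation maximisation, and the table holds whole numbers, which were used as they are. A second deposited table holds a log2-like variance-stabilised scale (VST) made by the authors from the same genes and served as an alternative. GRCm38 and DESeq2 are named in the submitters' processing notes.

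Genes were tested with edgeR 4.0.16 in R 4.3.3 (quasi-likelihood F tests, TMM scaling, edgeR's filter on low counts) on all genes, with Benjamini-Hochberg adjusted p under 0.05 as the call. Strain, diet and sex were tested in 469 untreated animals with strain, sex, diet and identifier range in the model, diet again in 234 treated animals, and metformin in all animals. The range separates sequencing identifiers below 15000 (544 libraries) from the others (159). SE is the log2 difference divided by the root of F. Shares of variance are omega squared on log2 CPM with a prior count of 2. CPM values use TMM over all libraries. Groups were taken from the labels, and 1 library stands for 1 animal. The paper states that housing and diet were assigned by litter. Litter and cage are not in the labels and did not enter the fits, which treat animals as independent, so p-values for diet may be too small. No 2 libraries were identical among 1404 pairs from the same combination of strain and group (0 pairs). Libraries were said to stand apart when their mean over the Nduf genes was over 5 scaled median absolute deviations from their strain and sex.

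The members, gene lists, markers and motifs were chosen with earlier results of these data known. Named by rule were the core subunits, Ndufa4, Ndufa4l2, the 5 members with the largest strain share, up to 5 called members in each direction for diet, sex and metformin, and members called for an interaction. Others are named as examples after their values were seen. limma 3.58.1 (voom, and limma with trend on the VST table), DESeq2 1.42.0, other scalings and filters, both identifier ranges, and fits without doubtful libraries or with copies added were run as alternatives. Only the diet fit of untreated animals was tried on simulated counts, with constant dispersion and no effects of strain, sex or identifier range. The differences put into the simulation were larger than those of the Nduf genes for diet in the main untreated fit. A copy was a transcript of the GENCODE transcripts with at least 95% identity over at least 200 bases. The values of 1 member are not reported here, although it enters all counts and medians.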

Additional observations from a re-analysis of the deposited data

Results flagged for a closer look

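The metformin difference of Ndufs1 differed between strains in the interaction test of edgeR (adjusted p = 0.0209 over all genes), with 13 strains below 0 and 7 above, from -0.16 to 0.10 on the log2 scale. It was not called by limma voom or within either identifier range. Without the 4 libraries that stand apart its adjusted p was 0.0089.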

How the results depend on the processing

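The count of members that differed between strains was 43 and fell to 10 in the upper identifier range, where fewer animals were tested. The 21 calls for diet became 0 in that range, the 39 for sex became 14, and the 19 for metformin became 0. With total counts alone and no TMM scaling, 14 were called for diet (13 higher and 1 lower), 25 for sex and 33 for metformin. In treated animals, the 3 calls for diet fell to 1 within the lower range and to 0 within the upper, and the median over the members reversed to -0.028 in the upper range. The metformin difference of Ndufs1 reversed to 0.0077 in the upper range. The single call for metformin by strain became 0 with limma voom and 0 in either range, and 2 without the libraries apart. The cause of these changes was not tested. The share of all genes called in each alternative fit is not given, so these counts cannot be read against a background. With each strain left out in turn (limma voom), 16 to 20 members were called for diet and 13 to 19 for metformin. No paired analysis was possible because every label gives the same replicate number. Leaving out the libraries apart and adding the counts of copies were alternatives chosen after seeing the data.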
